A study of Rattus norvegicus with 19 samples.

Results

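Mast cells of the hypothalamus were compared with mast cells of the hippocampus in rat pups at postnatal day 2 (PN2). The libraries were chosen by their labels alone: 2 from hypothalamus, which are all that the series holds at this age, and 4 from hippocampus, together 6 of 19. All pups were wild type and were perfused with PBS, and the labels name neither strain nor sex. The sorted cells were live singlets that carried much CD45 and FcεRI, the high-affinity receptor for IgE, and lacked CD11b. Each library holds the cells of 6 pooled pups, and the p-values therefore reflect how pools vary, not single animals. The 4 bone marrow and 5 skin libraries of PN2, and the 3 hippocampus and 1 hypothalamus libraries of PN7 (postnatal day 7), served to estimate the spread and as a scale.

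Mast cells are long-lived tissue immune cells that arise from blood progenitors and complete their maturation where they settle. They store histamine, heparin and proteases in granules and release them when antigen crosslinks the IgE bound to their receptor. In the rodent brain they lie mostly along blood vessels, in the meninges and near the ventricles, and both the hippocampal surroundings and the hypothalamus hold them in early life. The comparison asks which transcripts differ between the cells of these brain regions soon after birth.

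The values are estimated counts per Ensembl transcript, and the sources used here do not pair these identifiers with gene names. Of 29107 transcripts in the table, 20521 passed a filter on low counts and were tested. The filter looked at all 19 libraries, so enough counts in 1 library of any tissue could suffice. Shares of all tested transcripts therefore include some that are absent from both groups compared. No transcript could be assigned to a gene, so neither the mast cell identity of the sorted cells nor a share of other cells was checked, and gene groups are replaced below by groups of transcripts defined by level and tissue. In such bulk samples, fewer cells of a type and less RNA per cell cannot be told apart. Identifiers are printed for 2 transcripts in each direction, and other transcripts are described by rank and level.

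The 2 hypothalamus libraries were the shallowest of the series, with 5495252 and 5607810 estimated counts, against 19935250 to 22967152 in the hippocampus libraries of PN2. They also differed from each other more than any pair of hippocampus libraries did. The Pearson correlation of transcript levels between the 2 was 0.821, against 0.938 to 0.968 for pairs of hippocampus libraries. With the hippocampus libraries of PN2 it was 0.857 to 0.88 for hypothalamus replicate 1 and 0.86 to 0.869 for replicate 2. Each hypothalamus library thus correlated more with every hippocampus library of PN2 than with the other hypothalamus library. These values were taken on log2 levels of all tested transcripts without thinning. Low depth lowers such a correlation, most of all for a pair of shallow libraries. How far depth lowered the value for the hypothalamus pair was not tested. After thinning all libraries to the smallest total, hypothalamus replicate 1 held 15823 transcripts with at least 1 count and replicate 2 held 13153, whereas the 4 hippocampus libraries held 16651 to 16930. Both hypothalamus libraries thus lay below all hippocampus libraries, and an exact two-sided permutation test gave p = 0.133, the smallest that 2 against 4 libraries allow (adjusted p = 0.332 over 5 measures of the libraries). With a minimum of 5 counts the groups overlapped, at 14411 and 12420 transcripts against 13715 to 14356. Among 9147 transcripts averaging at least 10 CPM (counts scaled to a common library total), 8.45% differed at least 4-fold between the 2 hypothalamus libraries at equal depth. The 6 hippocampus pairs differed in 0.722% to 2.59% of them.

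Hypothalamus replicate 2 also stood with particular libraries of the other tissues. Bone marrow replicate 4 and skin replicates 4 and 5 differed from replicates 1 to 3 of their tissues by at least 4-fold in the same way in 41 transcripts, 15 higher and 26 lower, a set picked from these 2 tissues after the data were seen. The 15 averaged 4.58 on the log2(CPM + 0.5) scale in hippocampus replicate 4 and 1.72 to 1.74 in hippocampus replicates 1 to 3. In hypothalamus they averaged 2.22 in replicate 1 and 5.6 in replicate 2. The 26 averaged 0.717 in hippocampus replicate 4 and 4.10 to 4.49 in its other replicates, and 5.22 and 1.76 in hypothalamus replicates 1 and 2. On this scale hypothalamus replicate 2 thus lay with the libraries numbered 4 and 5, and replicate 1 with those numbered 1 to 3. In summed CPM the parting was less clean. The 15 summed to 14632 and 62688 CPM in hypothalamus replicates 1 and 2. Nearly all of this came from 2 members, ranked 4 and 7 by hypothalamus mean and described singly below. They held 4112 and 10480 CPM in replicate 1, and 40130 and 21660 CPM in replicate 2. In hippocampus they summed to 9685 CPM in replicate 4 and 465 to 660 CPM in the others. The 26 summed to 5558 CPM in hippocampus replicate 4 and 4976 to 5915 CPM in its other replicates, and to 13007 and 10558 CPM in hypothalamus replicates 1 and 2. The labels name no batch that sets these libraries apart.

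**Figure D1:**
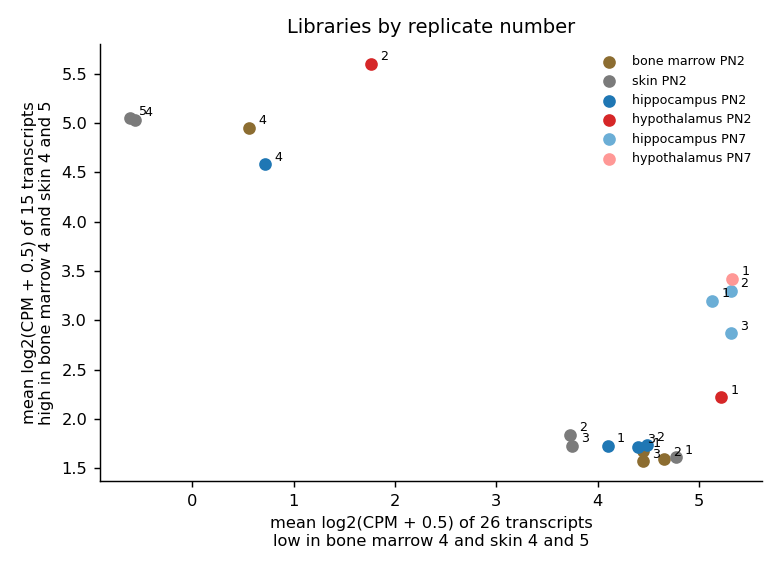
Each point is a library, labelled by its replicate number and coloured by tissue and age. The axes are the mean log2(CPM + 0.5) of the 26 transcripts low (horizontal) and the 15 high (vertical) in bone marrow replicate 4 and skin replicates 4 and 5. Hypothalamus replicate 2 and hippocampus replicate 4, which did not enter the choice of the transcripts, lie at the upper left with those libraries, at 5.6 and 4.58 on the vertical axis.

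Hypothalamic mast cells differed from hippocampal ones in 1275 transcripts, or 6.21% of those tested (adjusted p below 0.05, edgeR quasi-likelihood test on all 19 libraries). This test takes the spread of each transcript from all groups together, so hypothalamus was assumed to vary like them. Its 2 libraries differed more from each other than any hippocampus pair did, and the p-values allow for this only in part. In hypothalamus 511 transcripts were higher (2.49%) and 764 lower (3.72%). The median difference of the higher ones was 1.92 on the log2 scale, with quartiles of 1.12 and 3.37, and that of the lower ones was -1.32, with quartiles of -4.88 and -0.87. The median over all tested transcripts was -0.14. The fitted difference was at least 16-fold for 91 higher transcripts, of which 12 had 0 counts in all hippocampus libraries, and for 214 lower ones, of which 175 had 0 counts in both hypothalamus libraries. The fit sets the fold of such transcripts. With a group at 0 taken as 3 counts over the group, 91 higher and 92 lower transcripts reached 16-fold, and the medians were 1.91 and -1.28. Among transcripts with counts in both groups, 79 higher and 39 lower ones reached it. Of the called transcripts, 70 higher and 84 lower ones had values identical to another transcript in every library, so they do not stand for separate measurements.

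The number called depended on the fit and on single libraries. It was 2360 with DESeq2, and 817, 845 and 796 without hippocampus replicate 1, 2 or 3. It was 536 with all libraries thinned (266 higher, 270 lower), 233 with only the 6 libraries compared (152 and 81) and 271 with limma voom (251 and 20). The split also moved, to 623 higher and 570 lower with DESeq2 size factors (RLE) in place of TMM, whose median over all transcripts was -0.05.

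The calls were also made with a term for the libraries that stood apart, or without some of them. With a term for the libraries numbered 4 and 5 and hypothalamus replicate 2, added after the data were seen, 1869 transcripts were called, 678 higher and 1191 lower, and 1252 of the 1275 were among them. Without the libraries numbered 4 and 5, 2124 were called, 746 higher and 1378 lower, and 1154 of the 1275 were among them. This fit kept hypothalamus replicate 2 and dropped hippocampus replicate 4, so it does not account for the profile they share. Across the 9147 transcripts of at least 10 CPM, the difference of hypothalamus replicate 2 from replicate 1 correlated with that of hippocampus replicate 4 from replicates 1 to 3 at r = 0.292, and with that of skin replicates 4 and 5 from 1 to 3 at r = 0.357. For bone marrow r was 0.145. These are correlations across transcripts, which are not independent, and the libraries share the common scaling.

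**Figure D2:**
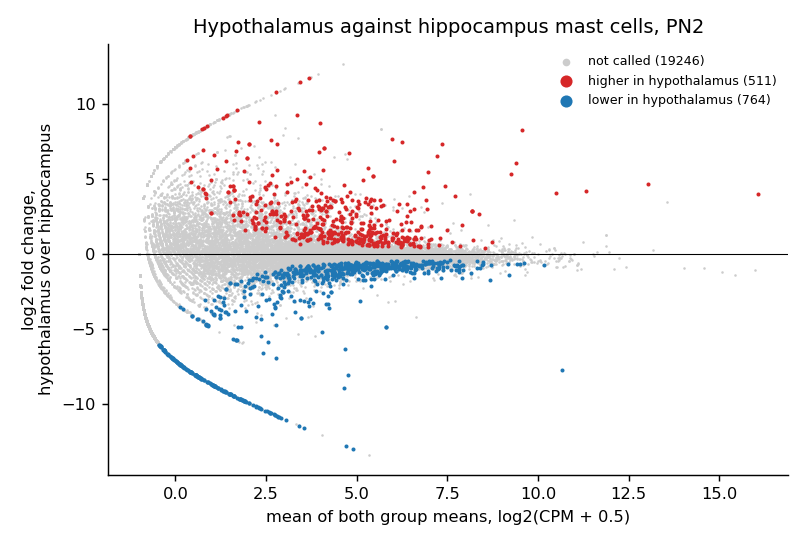
Each point is 1 of the 20521 tested transcripts. The horizontal axis is the mean of both group means as log2(CPM + 0.5), and the vertical axis is the fitted log2 fold change of hypothalamus over hippocampus at PN2. The 511 transcripts called higher (red) and 764 called lower (blue) lie over the whole range of levels.

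Each hypothalamus library was also set against the 4 hippocampus libraries alone, with its spread assumed to be like that of the other groups. Many of the 1275 transcripts were not called in these fits, more of them with replicate 1 alone than with replicate 2 alone. Replicate 1 alone gave 1584 calls of 20484 transcripts tested (7.73%), 656 higher (3.2%) and 928 lower (4.53%). Replicate 2 alone gave 3399 of 20412 (16.7%), 951 higher (4.66%) and 2448 lower (12%). Over all tested transcripts, replicate 1 lay above every hippocampus library in 5487 (26.7%) and below every one in 6894 (33.6%). For replicate 2 these counts were 4521 (22%) and 8014 (39.1%). Both libraries lay above all hippocampus libraries in 1659 transcripts (8.08%) and below them in 3939 (19.2%). Depth entered these counts, since 1156 of the 3939 had 0 counts in both hypothalamus libraries. With all libraries thinned to the smallest total, 1441 transcripts (7.02%) lay above and 2720 (13.3%) below, 516 of the latter with 0 counts in both. Among the 9147 transcripts of at least 10 CPM, as deposited, 1017 (11.1%) lay above and 1816 (19.9%) below, 6 of the latter with 0 counts in both. As deposited and over all tested transcripts, the 2 hypothalamus libraries lay outside on opposite sides in 3497 transcripts (17%). They lay outside on the same side in 5598 (27.3%). Random order of the libraries would also give the same side more often than opposite sides. The larger share is therefore not read as agreement of the 2 libraries. Of the called transcripts, 480 of the 511 higher and 762 of the 764 lower had no overlap between the 2 hypothalamus and the 4 hippocampus libraries, a separation that the test itself favours.

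Calls occurred at every level of expression. Among 7509 transcripts with a mean of 10 to 100 CPM, 4.45% were higher and 4.95% lower in hypothalamus. Among 1638 transcripts of at least 100 CPM the shares were 2.44% and 4.64%. Among 6130 transcripts under 1 CPM, 0.0979% were higher and 1.34% lower, so calls on rare transcripts were nearly all in the direction of less in hypothalamus, the group of lower depth.

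The transcripts described singly were those called, of at least 10 CPM in every library of the higher group, and without overlap, ranked by the gap between the nearest libraries of both groups on the log2(CPM + 0.5) scale. The rule was met by 362 higher and 464 lower transcripts. The gap was at least 4-fold for 75 of the higher and 16 of the lower ones.

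ENSRNOT00000027931.6 had the widest gap among the higher transcripts. It held 1818 and 1173 CPM in hypothalamus replicates 1 and 2, and 2.70, 2.17, 5.905 and 8.67 CPM in hippocampus replicates 1 to 4. Both hypothalamus libraries lay far above the highest hippocampus library, and the fitted log2 fold change was 8.26 ± 1.24 (SE, adjusted p = 0.000907, edgeR). Its levels outside the brain were low, from 0.399 to 14.4 CPM in bone marrow and from 0.314 to 2.81 CPM in skin. At PN7 the hypothalamus library held 6250 CPM and the hippocampus libraries held 228, 15.2 and 18.4 CPM. DESeq2 gave no adjusted p for this transcript.

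ENSRNOT00000054934.4 ranked second and had another pattern outside the brain. It held 163 and 134.5 CPM in the hypothalamus libraries, and 0.930, 1.13, 0.325 and 0.836 CPM in the hippocampus libraries. The log2 fold change was 7.51 ± 0.74 (SE, adjusted p = 2.26e-05, edgeR). Bone marrow held 76.96 to 201 CPM, a range that includes both hypothalamus libraries, while no skin library passed 0.673 CPM. At PN7 it stood at 184 CPM in hypothalamus and at 16.2, 2.275 and 2.825 CPM in hippocampus.

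The level in bone marrow divides the 10 higher transcripts with the widest gaps. Those ranked 2, 3, 8 and 9 had bone marrow means of 162, 72.4, 195 and 9160 CPM, and hypothalamus means of 149, 294, 127 and 1315 CPM. Their skin means were 0.330, 11.25, 2.97 and 6.51 CPM. The other 6 had bone marrow means of at most 6.57 CPM. One of them, ranked 5, was also present in skin at a mean of 30.0 CPM, and the remaining 5 had skin means of at most 1.315 CPM. In all 10, the PN7 hypothalamus library lay above all 3 hippocampus libraries of PN7. None of the 10 lost its call in any alternative that gave an adjusted p.

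ENSRNOT00000080517.1 had the widest gap among the lower transcripts. It held 1 count in each hypothalamus library (0.164 and 0.207 CPM), against 46.7, 67.3, 46.75 and 50.2 CPM in the hippocampus libraries. The ratio of hippocampus over hypothalamus was 287, with a 95% interval from 79.4 to 2370 that covers counting error only (adjusted p = 2.91e-06, edgeR). The transcript was present elsewhere at 30.7 to 58.05 CPM in bone marrow and 26.1 to 46.45 CPM in skin. At PN7 hypothalamus held 53.0 CPM, within the range of 24.25 to 55.3 CPM in hippocampus. The low level was thus seen in the 2 hypothalamus libraries of PN2 and in no other library. With limma voom the call was lost (adjusted p = 0.114).

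ENSRNOT00000021507.3 ranked second and was found mainly in hippocampus. It held 1 count in hypothalamus replicate 1 and 0 in replicate 2, and 68.9, 33.9, 38.0 and 56.2 CPM in the hippocampus libraries. The ratio of hippocampus over hypothalamus was 548, with a 95% counting interval from 98.3 to 21660 (adjusted p = 0.00822, edgeR, and 0.275 with limma voom). Bone marrow held at most 0.5335 CPM and skin at most 0.771 CPM. Hippocampus at PN7 held 1.18, 0.396 and 17.5 CPM, and hypothalamus at PN7 had 0 counts.

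**Figure D3:**
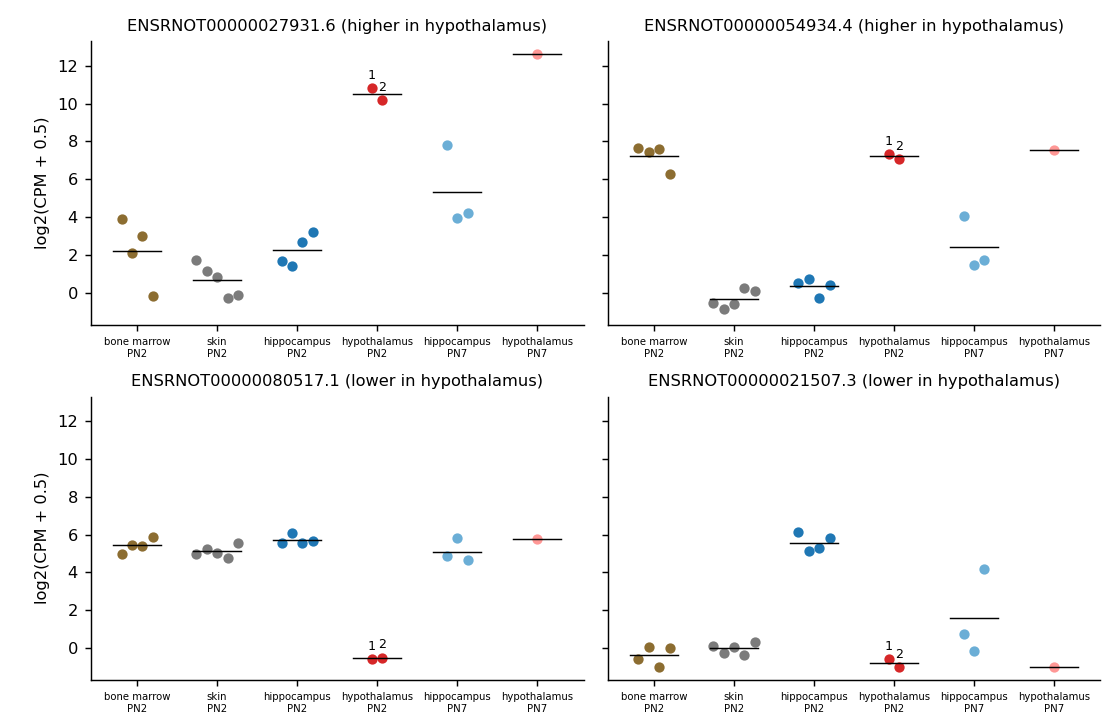
The 4 identified transcripts in all 19 libraries, as log2(CPM + 0.5) with 1 point per library and a line at the mean of each group. The numbers beside the hypothalamus points of PN2 are their replicate numbers. In the upper panels both hypothalamus libraries of PN2 lie with the PN7 hypothalamus library above hippocampus. In the lower left panel the 2 PN2 hypothalamus libraries lie apart from all other libraries.

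Among the 10 lower transcripts with the widest gaps, hippocampus replicates 1 and 4 held more than replicates 2 and 3 in 7, those ranked 2, 3, 4, 6, 8, 9 and 10, and those ranked 8 and 9 had identical values in every library. The largest of these, ranked 4, held 3924, 1412, 1368 and 6104 CPM in hippocampus and 29.0 and 0.8291 CPM in hypothalamus, so its hypothalamus libraries differed as well. The transcript ranked 5 was even across hippocampus, at 19.5, 18.7, 20.0 and 22.35 CPM, with 0 counts in both hypothalamus libraries and 27.15 CPM in hypothalamus at PN7. All 10 lost their calls with limma voom, which called 20 transcripts lower and 251 higher in all. Those ranked 4, 6 and 10 also lost them with only the libraries compared, those ranked 8 and 9 without either hypothalamus replicate, that ranked 9 after thinning, and that ranked 10 without hypothalamus replicate 2. At PN7 the hypothalamus library lay below all hippocampus libraries for 5 of the 10, within their range for 2 and above them for 3.

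The higher transcripts summed to much of the signal of the hypothalamus libraries, in CPM scaled by TMM, which are not exact shares of a library. The 511 summed to 110417 CPM in hypothalamus replicate 1 and 256040 CPM in replicate 2, against 16578 to 21714 CPM in hippocampus. Most of this was 1 transcript, the most abundant of hypothalamus on the mean, at 62110 and 193500 CPM. It made up 6.896% and 16.64% of the counts of hypothalamus replicates 1 and 2. It held 7000, 7341, 8168 and 8965 CPM in the hippocampus libraries (log2 fold change 4.02 ± 0.54, SE, adjusted p = 0.000321, edgeR). Its 2 hypothalamus libraries lay far apart, yet both were above all hippocampus libraries, and its level was also higher in hypothalamus at PN7, at 51090 CPM against 15560 to 30880 CPM. The 764 lower transcripts summed to 21171 and 22407 CPM in hypothalamus and 43463 to 45803 CPM in hippocampus.

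The 10 most abundant transcripts were ranked by their hypothalamus mean, which favours a higher direction, so their number of calls is not read. Besides the first, the one of abundance rank 7 was called. It held 10480 and 21660 CPM in hypothalamus and 219, 199, 203 and 1911 CPM in hippocampus (log2 fold change 4.67 ± 1.16, SE, adjusted p = 0.0255, edgeR). Hippocampus replicate 4 stood apart from the other 3 for this transcript. It is the only 1 called higher of the 15 transcripts high in bone marrow replicate 4 and skin replicates 4 and 5. In those libraries it held 2091, 1713 and 2240 CPM. Replicates 1 to 3 held 356 to 441 CPM in bone marrow and 146 to 399 CPM in skin. A neighbour in abundance, of rank 4 and also among the 15, held 4112 and 40130 CPM in hypothalamus. In hippocampus it held 194, 417, 293 and 7180 CPM. With its hypothalamus libraries far apart and hippocampus replicate 4 between them, it did not pass the test (adjusted p = 0.267, edgeR). The transcripts of abundance rank 2 and 3 held 41440 ± 15320 and 24170 ± 5168 CPM in hypothalamus (SD, n = 2) and 87410 ± 31060 and 64400 ± 7661 CPM in hippocampus (SD, n = 4), and neither difference passed (adjusted p = 0.379 and 0.13, edgeR).

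Levels in bone marrow and skin showed where the called transcripts lie in the wider series. The higher transcripts had a median group mean of 32.1 CPM in hypothalamus, 17.2 CPM in bone marrow, 8.49 CPM in skin and 7.26 CPM in hippocampus. For the lower ones the medians were 8.01 CPM in hypothalamus, 15.5 CPM in bone marrow, 18.9 CPM in skin and 21.7 CPM in hippocampus. Of the higher transcripts, 361 (70.6%) were highest in hypothalamus among the 4 tissues at PN2, 138 (27%) in bone marrow and 12 (2.35%) in skin. Of the lower ones, 316 (41.4%) were highest in hippocampus, 236 (30.9%) in bone marrow and 212 (27.7%) in skin. Over all tested transcripts 20.2% were highest in hippocampus, 23.4% in hypothalamus, 32.8% in bone marrow and 23.6% in skin. The choice of direction fixes that none of the higher ones was highest in hippocampus and none of the lower ones in hypothalamus.

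Among the higher transcripts, 119 (23.3%) had a bone marrow mean at least 4-fold above both hippocampus and skin, a pattern held by 8.93% of all tested transcripts and by 1.83% of the lower ones. The pattern asks for a low hippocampus level, which the higher calls have by selection and the lower ones lack, so these shares are a description. These 119 summed to 11124 and 10821 CPM in the hypothalamus libraries and to 1003 to 1443 CPM in hippocampus. Bone marrow replicates 1 to 3 held 139200 to 151108 CPM and replicate 4 held 57507 CPM. At PN7 they summed to 29243 CPM in hypothalamus and 2553 to 4056 CPM in hippocampus. Their medians in the hypothalamus libraries, 22.3 and 16 CPM, lay between those of bone marrow (30.4 to 41.5 CPM) and hippocampus (1.41 to 2.24 CPM). The part of bone marrow cells or their RNA in this result was not tested. A mean of at least 10 CPM in hypothalamus, with under 1 CPM in every bone marrow, skin and hippocampus library of PN2, was held by 11 of all 20521 tested transcripts. Of these, 6 were among the 511, with hypothalamus means of 12.6 to 53.3 CPM. At PN7, 4 of these 6 lay above all hippocampus libraries, where 33.1% of all tested transcripts did, and the PN7 hypothalamus levels of the 6 ran from 0 to 99.5 CPM.

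**Figure D4:**
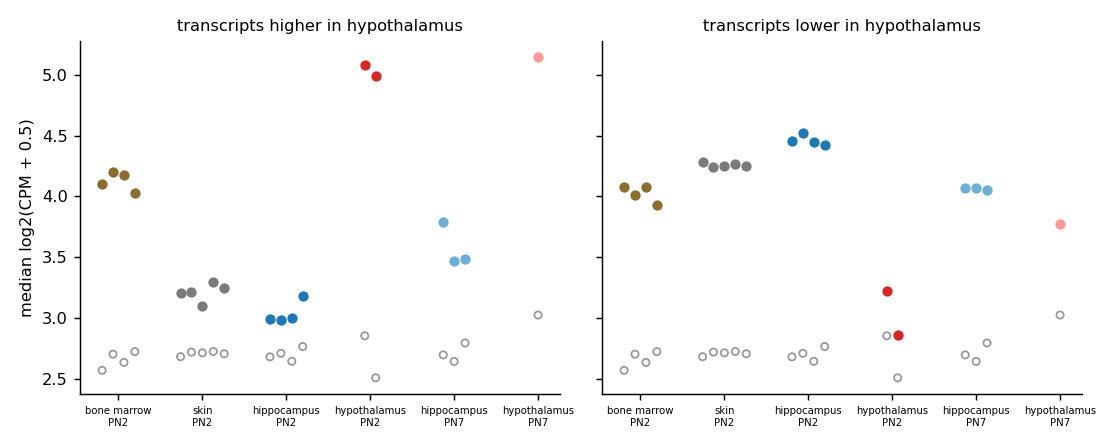
Median log2(CPM + 0.5) of the 511 transcripts called higher (left) and the 764 called lower (right) in each library, as filled points by group. Open points give the median of all 20521 tested transcripts in the same library. Hippocampus and hypothalamus of PN2 differ by the choice of the transcripts. The other groups played no part in that choice beyond the estimate of spread and the scaling, and bone marrow and the PN7 hypothalamus library stand nearest to hypothalamus on the left.

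Libraries of PN7 gave a look at the same transcripts in cells that entered neither PN2 group, with 1 hypothalamus library set against 3 of hippocampus by position. Of the 511 transcripts higher in hypothalamus at PN2, 400 (78.3%) lay above all 3 hippocampus libraries in the PN7 hypothalamus library and 51 (9.98%) below them. Over all tested transcripts 33.1% lay above and 30% below. Of the 764 lower ones, 429 (56.2%) lay below at PN7 and 181 (23.7%) above. The median difference at PN7 was 1.39 for the higher and -0.39 for the lower transcripts on the log2(CPM + 0.5) scale, with 0 for all tested. Of the higher transcripts that met the rule for single description with a gap of at least 2-fold, 144 of 153 lay above at PN7, and of the lower ones 42 of 61 lay below.

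**Figure D5:**
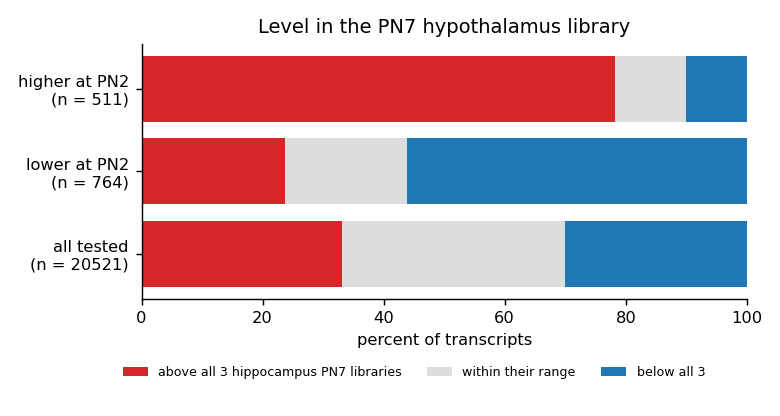
Bars give the percent of transcripts whose level in the PN7 hypothalamus library lay above all 3 hippocampus libraries of PN7 (red), within their range (grey) or below all 3 (blue). Rows are the 511 transcripts called higher at PN2, the 764 called lower and all 20521 tested. The higher transcripts fall in the red part in 78.3% of cases and the lower ones in the blue part in 56.2%, against 33.1% and 30% of all tested.

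Whether the difference between hypothalamus and hippocampus was the same at both ages was tested in the same fit, a test added after the data were seen. The lone PN7 hypothalamus library is assumed there to vary like the other groups. The difference between ages was called for 537 transcripts (2.62%), 29 of the 511 higher and 178 of the 764 lower ones. It uses the same PN2 libraries that made the calls, which favours such transcripts. ENSRNOT00000080517.1 was among them, with a difference of -8.67 on the log2 scale (adjusted p = 2.83e-05, edgeR). ENSRNOT00000027931.6 was not, at 2.10 (adjusted p = 0.683), nor was ENSRNOT00000054934.4, at 2.84 (adjusted p = 0.236, edgeR). The count of 537 was 139 with all libraries thinned, 331 with the replicate number as a block, 349 without hippocampus replicate 1, 2495 without hypothalamus replicate 1, 976 with the added term for the libraries that stood apart, and 823 when those numbered 4 and 5 were dropped.

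Transcripts without any count in hypothalamus made up 175 of the 764 lower ones. Their hippocampus means ran from 0.473 to 59.1 CPM with a median of 2.25 CPM, and 18 of them reached 10 CPM. A count of 0 allows up to 3 counts, that is 0.492 CPM in replicate 1, 0.622 CPM in replicate 2 and 0.275 CPM over both. The lowest members are therefore close to what this depth can show. At PN7, 75 of the 175 (42.9%) lay below all hippocampus libraries and 55 (31.4%) above, where 30% and 33.1% of all tested transcripts did. Of the 589 lower transcripts with counts in hypothalamus, 354 (60.1%) lay below and 126 (21.4%) above.

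Loss of transcripts that were well expressed in hippocampus was more frequent in hypothalamus replicate 2. Of 8131 transcripts with at least 10 CPM in all 4 hippocampus libraries, 24 (0.295%) had 0 counts in replicate 1, 113 (1.39%) in replicate 2 and 5 in both. A level of 10 CPM corresponds to 61.0 and 48.25 counts in these libraries. At the same depth, each hippocampus library held 0 counts for 1 to 7 of the 8196 to 8428 transcripts with at least 10 CPM in the other 3. At 50 CPM, 2 of 2881 transcripts had 0 counts in each hypothalamus library, and 1 of them in both.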

How the data were processed

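The authors deposited estimated counts per transcript without scaling. The submitters' processing notes name kallisto and the rat build Rnor_6.0, with its version not given in the sources used here. This tool divides reads among transcripts they fit equally. Of the values of transcripts with any reads, 72.4% were whole within 1e-06. Per the labels, SMART-Seq v4 made the cDNA and Nextera XT the libraries, which amplify without molecular identifiers, so counting intervals cover counting error only. Totals ran from 5495252 to 26394623. The gene table used here lists 47357 genes with 0 Ensembl identifiers, so marker and pathway lists were not tested and no sequence is printed.

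Counts were rounded. Transcripts were kept by filterByExpr (20521), scaled by TMM and fitted with edgeR 4.0.16 (R 4.3.3) by group over all 19 libraries (glmQLFit, robust). P-values are Benjamini-Hochberg adjusted over all transcripts, with calls below 0.05. CPM are TMM-scaled. An SE is the log2 fold change over the square root of F. Fits without 1 library refilter the transcripts. Permutation tests were exact. Alternatives used DESeq2 1.42.0 and limma 3.58.1 voom with quality weights, and figures matplotlib 3.10.9. The code was tested on simulated data. The single transcripts were named by the rule given in the text, and only 2 identifiers each way are printed. The comparison, rule and lists were chosen with earlier results of these data known. Where genes had been planned, transcripts were used.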

Additional observations from a re-analysis of the deposited data

Results flagged for a closer look

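In ENSRNOT00000080517.1, hippocampus replicate 2 held 67.3 CPM, far from the other 3 libraries at 46.7 to 50.2 CPM by Dixon's ratio, which chance exceeds in about 1 of 20 groups. The ratio was taken for the hippocampus libraries of every ranked transcript, among other groups, and only this value was flagged. The flagged library lies on the far side from hypothalamus.

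The difference between hypothalamus and hippocampus differed between PN2 and PN7 for 4 of the 10 lower transcripts with the widest gaps, with 1 hypothalamus library at PN7. The log2 difference between ages was -8.67 for ENSRNOT00000080517.1, -11.69 for the transcript ranked 5 and -8.08 for each of those ranked 8 and 9, which have identical values. Their PN7 hypothalamus levels were 53.0, 27.15 and 88.1 CPM, the last for both identical transcripts. The fit sets the size of the value for the transcript ranked 5, which had 0 counts in both PN2 hypothalamus libraries. None of the 10 higher ones differed between ages at an adjusted p below 0.05 (lowest 0.191, edgeR).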

How the results depend on the processing

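Against 1275 calls (511 higher, 764 lower), DESeq2 gave 2360 (1074 and 1286), limma voom 271 (251 and 20), only the libraries compared 233 (152 and 81), and thinning all libraries 536 (266 and 270). The term for the libraries numbered 4 and 5 and hypothalamus replicate 2 gave 1191 lower, and leaving out the libraries numbered 4 and 5 gave 2124 in all and 1378 lower. Leaving out 1 library at a time gave 796 to 3399 calls, 311 to 951 higher and 485 to 2448 lower. Other settings (RLE, no filter, a stricter filter, merged identical transcripts) kept the total within 1.5 times. The replicate number as a block gave 1280 calls (454 higher, 826 lower), 943 of them among the 1275. The deviations of same-numbered libraries from their group means correlated at 0.0391 for number 1 and -0.0775 for number 2. With only 2 hypothalamus libraries the deviations mirror each other, so these values cannot tell whether the numbers pair the pools.

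The percent of higher transcripts above all hippocampus libraries at PN7, 78.3%, was 66.9% with DESeq2, 86.1% with limma voom and 84.6% after thinning, and 57% to 82.2% without 1 library. For the lower ones below, 56.2%, it was 52% with DESeq2, 85% with limma voom, 61.4% with the replicate block and 63.2% without the libraries numbered 4 and 5, and 44.3% to 62.1% without 1 library. The count of transcripts that differed between ages, 537, was 331 with the block, 139 after thinning, 976 with the term, 823 without the libraries numbered 4 and 5, and 349 to 2495 without 1 library. Both hypothalamus libraries lay above hippocampus in 1659 and below in 3939 transcripts, and among those of at least 10 CPM in 1017 and 1816. With 1 hypothalamus library left out, 4521 to 5487 transcripts lay above and 6894 to 8014 below hippocampus. At 50 CPM, 2 and 2 transcripts were undetected in the hypothalamus libraries. Under these settings none of the 21 single transcripts described changed direction. The ranked ones among them were picked for the gap between the libraries of both groups, which favours this outcome, so it is not a check. Calls were lost for all 10 lower ones with limma voom; those ranked 4, 6, 8, 9 and 10 lost theirs in other settings as well. The cause of these shifts was not tested. Depth limits levels in hypothalamus under about 0.492 and 0.622 CPM.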
